A study of Mus musculus with 2 samples.

Results

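The regions described here are narrow sites that Hdac1 and Hdac2 share at gene ends in nephron progenitor cells. They were chosen from the Hdac1 list as islands on chromosomes 1 to 19, under 5000 bp wide, that shared at least 1 bp with an Hdac2 island and came within 1 kb of the start or the end of a protein-coding gene. Of 30182 Hdac1 islands, 5013 met all of these conditions. An island is a stretch that the authors' peak caller, SICER, marked as enriched in reads. The material was chromatin of nephron progenitor cells from kidneys of wild-type mice at E16.5 (embryonic day), grown in culture and then crosslinked. There was 1 library for an Hdac1 antibody, listed with 0.5 µg, and 1 library for an Hdac2 antibody, listed with 1 µg. Antibody and amount therefore cannot be told apart, no replicate exists for either, and no p is given. Intervals are 95% Wilson intervals and cover only counting error. Sequencing depth is unknown.

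Hdac1 and Hdac2 are closely related class I histone deacetylases. They bind no DNA sequence of their own. Within complexes such as CoREST, NuRD and Sin3 they are the enzymes that remove acetyl groups from histone tails. Although they are best known as corepressors, deacetylases are also found at active promoters, where acetylation turns over. In the fetal kidney, progenitor cells of the cap mesenchyme either renew themselves or form the epithelium of the nephron.

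The positions, widths and overlap of the islands chose the set and are given as a description. The cell type label could be set only beside islands, which do not measure expression. The progenitor regulator genes Six2, Eya1, Sall1, Wt1, Osr1 and Pax2 had an Hdac1 island of 5 kb or more at an end and so lie outside the set. Itga8 and Meox1 were in it, Crym had only narrow Hdac1 islands without Hdac2, and Cited1 was not among the autosomal genes counted. Wide islands were not particular to progenitor genes. They stood at 14 of 25 of these, 8 of 17 stromal and 4 of 18 ureteric bud genes. The count was 7 of 26 for genes of committed nephron cells, and the share of all genes was 5.12%.

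To show what lies under these islands, the 200 bases before the transcription start are printed for genes at both extremes, from RefSeq (GRCm38.p6), 5′ to 3′ on the strand of the gene. The first group holds 3 of the islands at the lowest Hdac1 value that hold a start of the RefSeq table, ordered by their Hdac2 value. Bend3 encodes a BEN domain repressor (chr10:43478940-43479139, plus strand), Kmt2a a histone H3 lysine methyltransferase (chr9:44881290-44881489, minus strand) and E2f3 a cell cycle transcription factor (chr13:29986064-29986263, minus strand). Capitals mark CG dinucleotides.
Bend3: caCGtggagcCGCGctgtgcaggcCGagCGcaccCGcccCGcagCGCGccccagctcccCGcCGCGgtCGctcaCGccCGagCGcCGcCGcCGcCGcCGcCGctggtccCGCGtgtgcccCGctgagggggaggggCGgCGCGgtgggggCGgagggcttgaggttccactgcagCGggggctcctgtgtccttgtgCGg
Kmt2a: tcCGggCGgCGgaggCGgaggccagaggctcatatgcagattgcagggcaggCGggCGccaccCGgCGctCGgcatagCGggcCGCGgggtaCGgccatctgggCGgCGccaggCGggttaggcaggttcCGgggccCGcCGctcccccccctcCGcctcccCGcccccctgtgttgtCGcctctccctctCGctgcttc
E2f3: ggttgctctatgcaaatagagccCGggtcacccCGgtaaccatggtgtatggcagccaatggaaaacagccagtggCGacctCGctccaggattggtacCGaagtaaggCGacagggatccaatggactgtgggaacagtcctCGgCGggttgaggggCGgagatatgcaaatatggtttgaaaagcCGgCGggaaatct
The printed stretches hold 31 CG at Bend3, 23 at Kmt2a and 11 at E2f3.

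The next group has the islands with the lowest Hdac2 value, at the predicted gene Gm13276 (chr4:88784854-88785053, plus strand) and at Klhl17, an actin-binding Kelch protein gene (chr4:156234858-156235057, minus strand). Ttk, the spindle checkpoint kinase gene (chr9:83834489-83834688, plus strand), stands for a typical CG count. Capitals again mark CG.
Gm13276: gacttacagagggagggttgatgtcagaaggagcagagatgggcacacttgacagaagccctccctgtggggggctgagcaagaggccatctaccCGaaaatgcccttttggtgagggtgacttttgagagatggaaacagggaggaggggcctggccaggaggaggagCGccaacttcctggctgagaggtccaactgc
Klhl17: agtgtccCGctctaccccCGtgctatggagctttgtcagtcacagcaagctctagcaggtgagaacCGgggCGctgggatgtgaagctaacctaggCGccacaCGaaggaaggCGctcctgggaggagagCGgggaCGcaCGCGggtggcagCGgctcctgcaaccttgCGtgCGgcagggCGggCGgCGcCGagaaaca
Ttk: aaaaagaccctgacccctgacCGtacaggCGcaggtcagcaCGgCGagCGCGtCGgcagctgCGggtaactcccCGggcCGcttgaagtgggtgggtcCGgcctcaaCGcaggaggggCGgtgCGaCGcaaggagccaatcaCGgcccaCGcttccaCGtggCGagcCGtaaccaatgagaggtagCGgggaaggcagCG
Gm13276 held 2 CG in this stretch, Klhl17 18 and Ttk 22.

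The last group has the promoters poorest in CG among those with the TATA letters (TATAAA on either strand), which are in capitals. They belong to the predicted gene Gm46608 (chr17:10323412-10323611, minus strand) and to Ggn, a germ cell gene (chr7:29170010-29170209, plus strand). The letters were sought anywhere in the 300 bases around the start, so they are not shown to be a TATA box.
Gm46608: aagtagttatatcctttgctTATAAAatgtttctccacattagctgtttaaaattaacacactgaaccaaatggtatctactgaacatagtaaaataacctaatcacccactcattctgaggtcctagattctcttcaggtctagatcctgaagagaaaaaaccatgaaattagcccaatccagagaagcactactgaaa
Ggn: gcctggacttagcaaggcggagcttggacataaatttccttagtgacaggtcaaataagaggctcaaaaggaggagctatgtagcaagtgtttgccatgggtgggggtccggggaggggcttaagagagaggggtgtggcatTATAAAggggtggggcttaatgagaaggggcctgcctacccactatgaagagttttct
The stretch at Gm46608 held 0 CG and that at Ggn 2.

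Among the 5013 islands, 10 had an Hdac1 value of 0, the lowest that the files hold; the value is the authors' p-value or q-value, which ranks islands within a list. Several were at transcription and chromatin genes. The Bend3 island (chromosome 10, 43477201 to 43480800) was 3600 bp wide for Hdac1 and 3000 bp wide for Hdac2, whose value was 4.14e-81. At Kmt2a, Hdac1 covered 4400 bp and Hdac2 2600 bp (5.45e-21), and at E2f3 they covered 4400 bp and 4000 bp (1.02e-14). Bbx, an HMG-box factor gene, had 4000 bp of Hdac1 and 4600 bp of Hdac2 (5.5e-60). Cdh2, which encodes N-cadherin, had 4000 bp and 3400 bp (4.15e-56), and Tfap4, a basic helix-loop-helix factor gene, 4800 bp and 3000 bp (3.11e-18). Scrt1, a zinc finger repressor gene of neurons, had 2600 bp and 2000 bp (1.04e-27), and Cramp1l 4400 bp and 3800 bp (5.25e-11). Over the 10 islands the Hdac2 values ran between 2.32e-92 and 5.25e-11.

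The other 2 islands at 0 were short. The island at the first base of Cacng2, a gene for an auxiliary subunit of glutamate receptors, was 1000 bp wide for Hdac1 and 800 bp for Hdac2, with an Hdac2 value of 2.32e-92. At the last base of Dvl1, a Wnt signalling adaptor gene, the Hdac1 island of 800 bp and the Hdac2 island of 600 bp began at the same position, 155859201 on chromosome 4, and the Hdac2 value was 3.47e-47. Wls, the gene for the Wnt carrier Wntless, had an island of 600 bp beyond its last base with the same edges in both lists (chromosome 3, 159939201 to 159939800), at 1.46e-17 for Hdac1 and 1.17e-80 for Hdac2. Whether such short islands mark deacetylase binding was not tested.

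Ranked by Hdac2, the set was led by Gm13276, whose Hdac1 island of 2000 bp (1.5e-52) lay inside an Hdac2 island of 21000 bp (5.04e-119), and by Klhl17, with 4000 bp of Hdac1 (1.6e-300) and 3200 bp of Hdac2 (3.56e-107). The islands at Nicn1, Zfp827, Zfat and Eps15, an endocytosis adaptor gene, followed after Cacng2, Bend3 and Wls. Nicn1 had an Hdac2 island of 1200 bp (1.95e-71) on an Hdac1 island of 3200 bp (1.75e-65). Zfp827 and Zfat, both zinc finger genes, had Hdac1 values of 1.82e-294 and 8.12e-130 and Hdac2 values of 1.84e-66 and 7.02e-66. Bend3, Bbx and Cacng2 were among the 10 lowest in both rankings.

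At the other extreme, the 5 islands with the highest Hdac1 values lay at Zfp984 (0.0914), Gm7697 (0.0526), Gm10376 (0.0513), Gm31714 (0.0337) and Rex2 (0.0316). Their Hdac2 values were 0.00237 at Zfp984, 7.51e-17 at Gm7697, 2.89e-13 at Gm10376, 1.58e-05 at Gm31714 and 2.73e-06 at Rex2. Zfp984 and Rex2 lie on chromosome 4, with islands that began at 147754401 and 147057801. Hdac2 islands at Gm7697 and Gm10376 were wide, at 11000 bp and 10600 bp.

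In the middle of the set, an Hdac1 island was 2600 bp wide (median, quartiles 2000 and 3400 bp) and the Hdac2 island that it met was 2200 bp wide (1600 and 3000 bp). The Hdac2 island was the narrower of the pair in 62.6% and the wider in 29.6%. It lay wholly inside the Hdac1 island in 48.4% (interval 47.1 to 49.8%), and Hdac2 covered a median of 75% of the Hdac1 island. Outlines were rarely the same: both edges were identical in 88 islands and within 200 bp, the step of the caller's grid, in 13.7%. The centres of the pair were a median of 300 bp apart. The rule asks for 1 bp of overlap, but the smallest overlap was 200 bp, in 3 islands, at Wnt8b, Shroom1 and LOC115488129. Only 11 islands met 2 Hdac2 islands, and 134 met an Hdac2 island of 5000 bp or more.

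**Figure D1:**
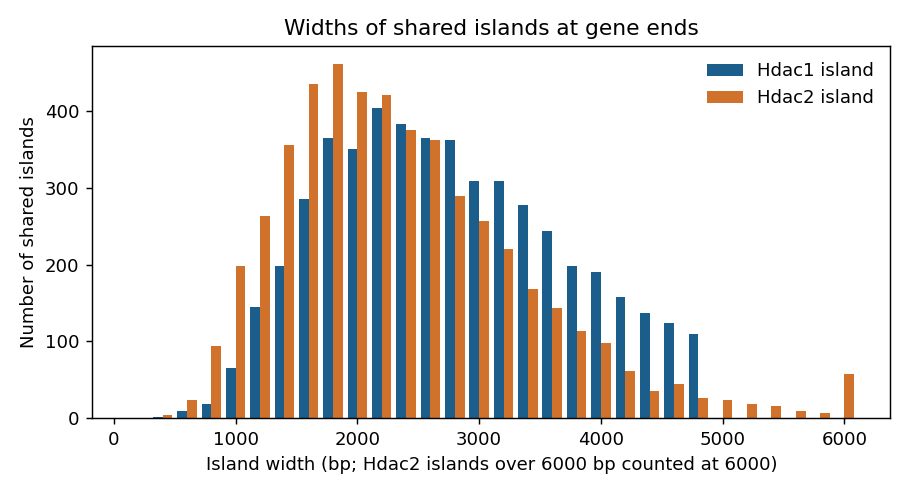
Number of shared islands at gene ends (vertical axis) by island width in bp (horizontal axis), for Hdac1 and for the Hdac2 island that each overlaps most. The Hdac1 widths centre on a median of 2600 bp and stop at 4800 bp because of the width limit, and the Hdac2 widths centre on 2200 bp.

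At the width limit, 110 islands of 4800 bp were inside the set and 94 shared islands of 5000 bp at gene ends were just outside it. Tfap4, Mfsd11 and Jun, the AP-1 subunit gene, were the strongest at 4800 bp. The Jun island had an Hdac1 value of 3e-271 and an Hdac2 value of 3.99e-34. Pou2f1, Vgf and Erf were the strongest just outside; Pou2f1 had an Hdac1 value of 0 and an Hdac2 value of 1.13e-31. The median Hdac1 value was 8.79e-98 at 4800 bp and 4.44e-101 at 5000 bp.

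Within their own lists, the islands stood high for Hdac1 and near the middle for Hdac2. The median Hdac1 value was 3.1e-65 (quartiles 6.85e-97 and 1.93e-41), and 73.5% of the islands were among the strongest 25% of all Hdac1 islands. The median Hdac2 value was 4.2e-08 (2.59e-11 and 8.36e-06), and 24.6% were among the strongest 25% of all Hdac2 islands. Both ranks were in the strongest 10% at 358 islands, while 635 islands combined an Hdac1 rank in the strongest 10% with an Hdac2 rank in the weaker 50%. Across the 5013 islands, Spearman's rho was 0.337 between the values and 0.363 between the widths, a description over islands that share the same pair of libraries.

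Wider islands had lower values. The 1090 islands under 2000 bp had a median Hdac1 value of 6.43e-46 and an Hdac2 value of 7.01e-08, and Hdac2 covered 87.5% of them. The 3204 islands of 2000 to 3800 bp had medians of 2.53e-68 for Hdac1 and 5.66e-08 for Hdac2, with 73.3% covered. The 719 islands of 4000 to 4800 bp had medians of 9.39e-86 and 1.56e-09, with 61.9% covered. A transcription start was held by 72.6% of the short, 77.2% of the middle and 77.1% of the wide islands. Starts were taken from the RefSeq promoter table, and an island whose genes are not in it counts as holding none, so these shares are lower bounds.

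Shared islands elsewhere in the genome gave a different balance between the antibodies. The median Hdac1 value was 3.1e-65 at gene ends, against 3.37e-18 for 2824 shared islands inside genes and 4.23e-16 for 2919 between genes. A low value was not particular to shared islands at gene ends. The 5946 narrow Hdac1 islands at gene ends without Hdac2 had a median of 4.99e-28, also below those inside and between genes. The Hdac2 medians were 4.2e-08 at gene ends, 2.14e-08 inside genes and 4.53e-09 between genes. Hdac2 was the wider of the pair in 29.6% at gene ends, 43.8% inside genes and 47.9% between genes. Of 28318 Hdac1 islands on these chromosomes under 5000 bp, 38% were shared with Hdac2. The share was 45.7% (interval 44.8 to 46.7%) of the 10959 at gene ends and 33.1% (32.4 to 33.8%) of those away from them; the rule uses this overlap, so the shares are a description.

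The rule treats the first and last base of a gene alike, but the islands lay mostly at first bases. RefSeq promoters gave a strand for every touched gene of 3954 islands. Of these, 96.2% (interval 95.6 to 96.8%) touched the window at the first base of a gene, 9.26% touched both kinds, and 150 islands (3.79%, 3.24 to 4.44%) touched last bases only. Among Hdac1 islands at gene ends without Hdac2, 8.16% (7.4 to 8.98%) touched last bases only. The 150 islands stood lower in the Hdac1 list, with a median value of 1.18e-22, against 4.21e-67 for islands at first bases only. For Hdac2 the medians were 5.19e-08 at last bases and 4.4e-08 at first bases. Of the 150, 21 had another start of the promoter table within 1 kb. The 150 islands included those at Wls, Dvl1, Mrps30 and Gdnf, the gene for the ligand that draws the ureteric bud into the kidney mesenchyme. At Gdnf the 2000 bp island was at 4.14e-10 for Hdac1 and 7.88e-08 for Hdac2.

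The islands were not centred on the transcription start but reached farther into the gene. In the 2922 islands with a single annotated start, Hdac1 extended a median of 935 bp upstream (quartiles 619 and 1398 bp) and 1513 bp downstream (1046 and 2123 bp). Hdac2 extended 840 bp upstream (494 and 1351 bp) and 1200 bp downstream (789 and 1728 bp). The downstream side was the longer in 73.5% for Hdac1 and 64.6% for Hdac2. Hdac1 reached beyond Hdac2 downstream in 60.7% (interval 59.0 to 62.5%) and upstream in 51.6% (49.8 to 53.4%). The start itself was inside the Hdac2 island in 97.5%. Hdac1 islands without Hdac2 were shorter on both sides, at 659 bp upstream and 1038 bp downstream, and were longer downstream in 71.8%.

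**Figure D2:**
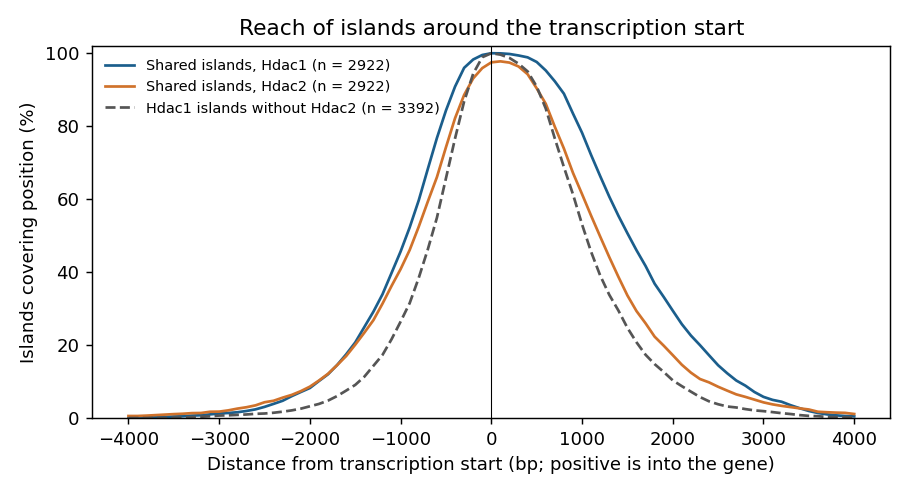
Percent of islands that cover each position (vertical axis) by distance from the transcription start in bp, positive into the gene (horizontal axis), for islands with 1 annotated start. At 500 bp downstream 97.6% of the shared Hdac1 islands and 90.4% of their Hdac2 islands cover the position, and at 500 bp upstream 84.3% and 74.3% do; the dashed line shows Hdac1 islands without Hdac2.

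Single examples show how the reach differs. At Bend3, Hdac1 reached 1939 bp upstream and 1660 bp downstream of the start. At Zfp827, it reached 836 bp upstream and 3563 bp downstream, and at Nicn1 642 bp upstream and 2557 bp downstream. Jun was nearly even, with 2378 bp upstream and 2421 bp downstream.

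Most islands belonged to 1 gene. A total of 4082 touched a single gene, 883 touched 2 and 48 touched 3 or more. Those with the most genes lay at the clustered protocadherins on chromosome 18, whose variable exons share the last exons: an island of 4200 bp (1.22e-39 for Hdac1, 2.98e-10 for Hdac2) touched 25 genes including Diaph1, and one of 3200 bp (1.04e-12 and 5.7e-10) touched 14. Counts of genes therefore hold groups that share an island. The Prickle4 island touched 5 genes, and those at Ppp1r14b and Mrps34 touched 4 each.

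Part of the set held coding starts on both strands, as divergent promoters do. Whether such starts point away from each other was not examined. Of the 3817 islands that held a transcription start, 11.6% (interval 10.7 to 12.7%) held coding starts on both strands, against 7.96% (7.17 to 8.83%) of 4097 Hdac1 islands without Hdac2. The order turned round among islands of similar Hdac1 value. In the quintile of gene-end islands with the lowest Hdac1 values, the shares were 17.9% of the shared islands and 22.5% of those without Hdac2; in the next quintile they were 11.4% and 14.4%, and in the third 5.7% and 8.67%. In the last 2 quintiles, at 4.38% against 3.9% and 2.7% against 2.5%, the shared islands were the higher. A start of a long noncoding RNA lay in 10.7% of the shared islands and 7.79% of those without Hdac2. Where an island held both a coding and a long noncoding start, they were on opposite strands in 427 of 445 shared islands (96%) and in 372 of 379 islands without Hdac2 (98.2%).

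Most promoters under the shared islands were rich in CpG. Those of the genes printed above ranged from 46 CG in 300 bp at Bend3 to 1 at Gm46608. RefSeq gave a promoter, 250 bases before to 50 bases after the start, for 16456 of 20661 autosomal protein-coding genes (79.6%), and 1 start per gene was used. These promoters held none of chromosome 18. The 4253 promoters in shared islands had a median of 25 CG in 300 bp (quartiles 18 and 33), against 20 (14 and 26) in Hdac1 islands without Hdac2 and 3 (1 and 6) at 6502 starts in no Hdac1 island. The ratio of observed to expected CpG had medians of 0.836, 0.746 and 0.186 in the same order, and 85.4% of the shared promoters were at 0.6 or more. GC content was 64.7% in shared islands, 60% without Hdac2 and 47.3% with no Hdac1. The TATA letters (TATAAA on either strand) occurred in 5.01% (interval 4.39 to 5.71%) of shared promoters and 13.5% of all promoters. Genes that start close together are counted separately, so their promoters can overlap.

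**Figure D3:**
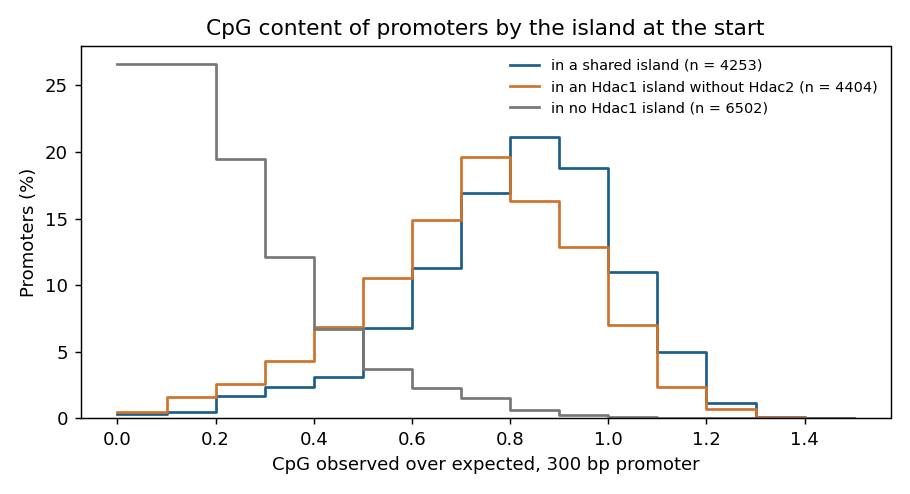
Percent of promoters (vertical axis) by the ratio of observed to expected CpG in 300 bp (horizontal axis), for starts in a shared island, in an Hdac1 island without Hdac2 and in no Hdac1 island. The medians are 0.836, 0.746 and 0.186, and the curve of the shared islands peaks farthest to the right.

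CpG also followed the Hdac1 value. Within the quintile of lowest Hdac1 values the median was 28 CG for shared islands and 26 for those without Hdac2, and in the quintile of highest values it was 16 and 14. The ratio of observed to expected CpG was 0.881 at shared islands and 0.897 without Hdac2 in the first quintile, and higher at shared islands in the other 4. GC content was higher at shared islands in each of the 5 quintiles, from 66.7% against 63% in the first to 60% against 58.3% in the last.

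Short motifs of promoter factors were searched on both strands as exact letters; a match is a description of sequence, not a binding site. A GC box and the E2F letters can share bases. The GC box of SP and KLF factors (GGGCGG) was in 73.9% (interval 72.5 to 75.2%) of shared promoters, 65.7% (64.3 to 67.1%) of those in Hdac1 islands without Hdac2 and 47.3% of all. The E2F letters (TTCCCGC) were in 9.97%, 8.45% and 6.14%, and the NRF1 letters (TGCGCA) in 15.2%, 16% and 10.1%. The ETS letters (CCGGAAG) went the other way from the GC box: they were in 18.2% (17.1 to 19.4%) of shared promoters and 20.9% (19.8 to 22.2%) of those without Hdac2, with 12.3% over all promoters. YY1 (AAGATGG) was in 6.49% and 7.79%, ZNF143 (ACTACAA) in 3.6% and 5.18%, and the CCAAT box in 36.4% and 41.1%, with 6.4%, 3.96% and 39.1% over all promoters. The E2f3 promoter printed above holds the CCAAT letters. The other motifs, in shared promoters, in those without Hdac2 and over all promoters, were at 8.77%, 12.4% and 14.7% for TCF/LEF (CTTTGA), and at 10.2%, 11.1% and 7.97% for the E-box (CACGTG). CREB letters (TGACGT) were at 12.5%, 12.5% and 8.82%, and the longer CREB letters, which add CA to them, at 3.27%, 4% and 2.4%. AP-1 (TGANTCA) was at 3.79%, 4.11% and 7.12%, REST (CAGCACC) at 7.27%, 7.79% and 7.24%, and HOX (TTTATGG) at 1.55%, 1.45% and 2.36%.

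The gap in ETS letters was wider in the first 4 quintiles of Hdac1 value than over all islands, and was 6.25% against 8.79% in the last. In the quintile of lowest values, ETS letters were in 19.9% (interval 18.1 to 21.9%) of 1701 shared promoters, against 34.7% (30.4 to 39.4%) of 426 without Hdac2. In the same quintile YY1 letters were in 7.35% (6.2 to 8.69%) and 12.4% (9.64 to 15.9%). ETS, ZNF143, CCAAT and TCF/LEF letters were less frequent at shared islands in all 5 quintiles, and YY1, NRF1, TATA, E-box and the shorter CREB letters in 4 of 5; in the weakest quintile, with 112 shared promoters, YY1 was at 4.46% against 4.06%. The intervals of ETS did not meet in the first 3 quintiles, those of YY1 in the first and the fourth, and those of ZNF143 and the GC box in the third. GC boxes were more frequent at shared islands in the first 4 quintiles and stood at 56.2% against 60.2% in the last. The quintiles were chosen after the pooled shares were seen, and the difference between the groups has no replicate and was not tested.

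**Figure D4:**
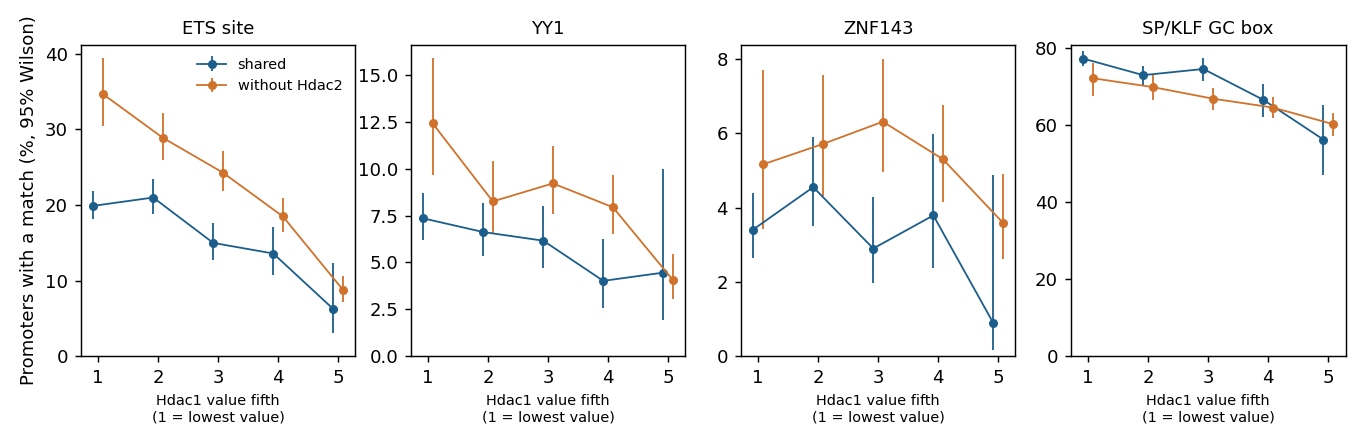
Percent of promoters with a match to 4 motifs (vertical axes, with 95% Wilson intervals) by quintile of Hdac1 value (horizontal axes, 1 is the lowest value), for shared islands and for Hdac1 islands without Hdac2. ETS letters are at 19.9% in shared islands and 34.7% without Hdac2 in the first quintile, whereas GC boxes are at 77.2% and 72.1%.

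Of 20661 autosomal protein-coding genes, 5864 (28.4%) had a shared island under 5000 bp at an end, and 62.6% had an Hdac1 island of any kind there. Of all genes, 5.12% had no such shared island but an Hdac1 island of 5 kb or more, and 29.1% had only narrow Hdac1 islands without Hdac2, which is called Hdac1 alone. Genes with a shared island spanned a median of 27138 bp, those with a narrow Hdac1 island without Hdac2 20318 bp, and those with no Hdac1 island 9603 bp. By chromosome the share of genes ran from 20.3% on chromosome 7 to 33.7% on chromosomes 12 and 18; without the olfactory, vomeronasal and taste receptor genes it was 25.5% on chromosome 7.

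Genes that write and erase histone acetylation were in the set above the 28.4% of all genes. In both lists every tested gene had an Hdac1 island at an end, as did 12944 of all 20661 genes. Of those 12944 genes, 5864 were in the set, a share that lies inside the intervals of both lists given below. Of 30 genes for class I deacetylases and their complexes, 17 (56.7%, interval 39.2 to 72.6%) had a shared island under 5000 bp, 3 had a wider Hdac1 island and 10 had Hdac1 alone. Their counts fell when only the upper 50% of each list by value was kept, to 7 of these 30 genes and 4 of 15 acetyltransferase genes, with 2665 of the 20661 genes in all. An end of the Hdac1 gene itself met an Hdac1 island of 3800 bp (1.74e-168) with an Hdac2 island of 2200 bp (1.3e-06). That island touched first and last base windows and a gene of unknown strand, so it need not lie at the first base of Hdac1. The first base of the Hdac2 gene had 2400 bp of Hdac1 (1.25e-88) and 1400 bp of Hdac2 (1.51e-12). Rcor1 and Rcor2, scaffold genes of CoREST, had 4000 bp of Hdac1 (6.6e-201) with 3600 bp of Hdac2 (3.67e-15), and 4200 bp (4.75e-142) with 2200 bp (3.16e-24). Sap30 and Suds3 of the Sin3 complex had Hdac1 values of 4.36e-224 and 6.52e-137 and Hdac2 values of 1.07e-05 and 9.63e-08. Mbd3 and Gatad2b of NuRD had 1.21e-85 and 6.85e-83 for Hdac1, and 2.33e-05 and 1.09e-08 for Hdac2. Ing1, a chromatin reader of the Sin3 complex, was listed at 6.65e-307 and 2.76e-07. Of 15 acetyltransferase genes and their partners 10 were in the set (66.7%, 41.7 to 84.8%). Kat6a, Kat6b, Kat2b and Crebbp, which encode acetyltransferases, had Hdac1 islands of 4000, 4200, 4800 and 3600 bp. Their Hdac2 values were 9.12e-15 at Kat6a, 2.17e-14 at Kat6b, 3.36e-17 at Kat2b and 1.71e-06 at Crebbp. Kat7, Kat8 and Hat1 had higher Hdac2 values, at 0.000481, 0.00282 and 0.00395, and the median over the 10 islands was 3.06e-07, against 4.2e-08 for the whole set. Ep300, Kat2a and Kat5 had Hdac1 alone.

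**Figure D5:**
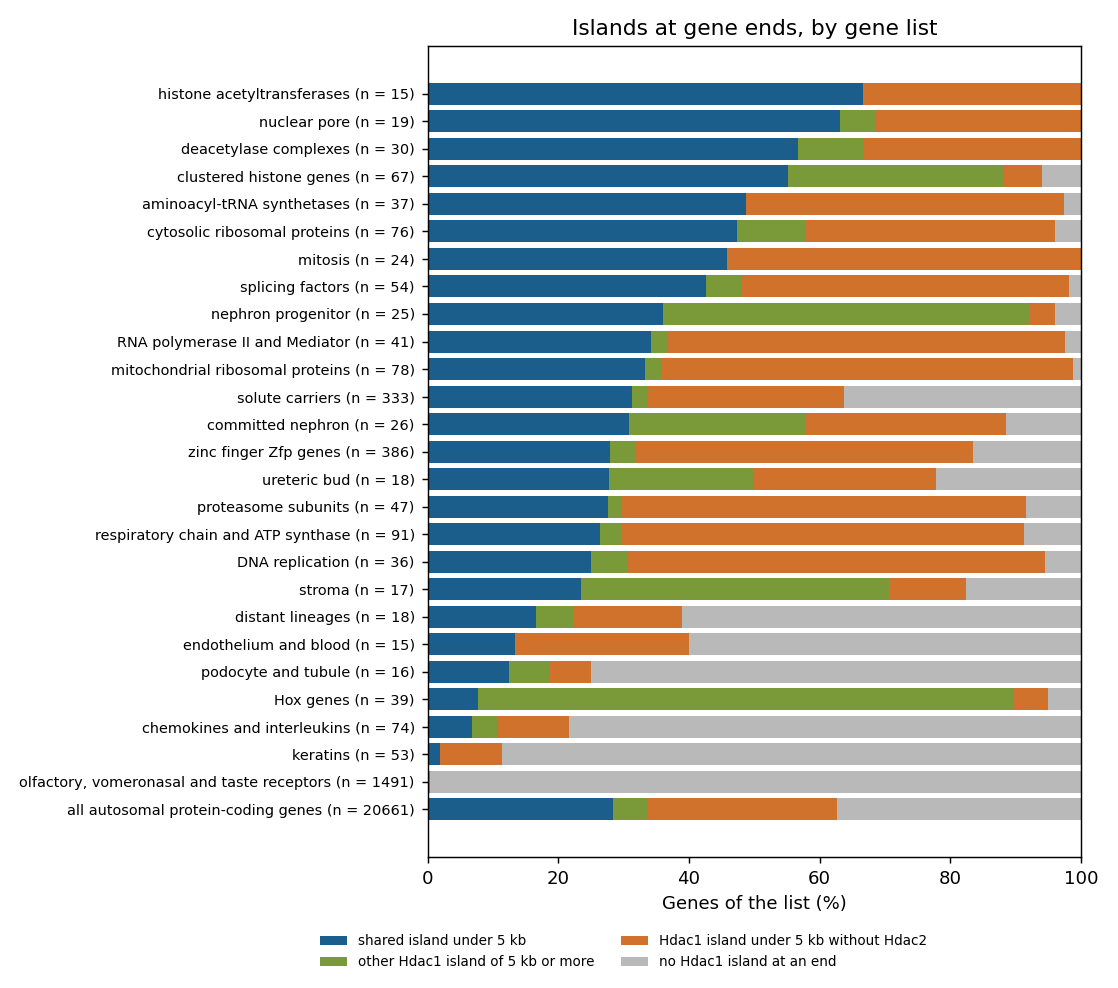
Percent of the genes of each list (horizontal axis) with a shared island under 5 kb, with no such island but an Hdac1 island of 5 kb or more, with only an Hdac1 island under 5 kb without Hdac2, or with none at an end. Acetyltransferase genes stand at 66.7% and the receptor genes at 0.268%, beside 28.4% of all autosomal genes.

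Genes for general cell functions varied. Nuclear pore genes were in the set at 12 of 19, with Nup153 at 4.01e-212 for Hdac1 and 3.83e-09 for Hdac2. Aminoacyl-tRNA synthetase genes were in it at 18 of 37 (48.6%, interval 33.4 to 64.1%), cytosolic ribosomal protein genes at 36 of 76 (47.4%, 36.5 to 58.4%) and splicing factor genes at 23 of 54 (42.6%, 30.3 to 55.8%). Near the 28.4% of all genes were the mitochondrial ribosomal proteins (26 of 78), respiratory chain and ATP synthase (24 of 91), proteasome (13 of 47), RNA polymerase II and Mediator (14 of 41), solute carriers (104 of 333) and Zfp zinc finger genes (108 of 386). Hdac1 alone, at 29.1% of all genes, was found at 49 mitochondrial ribosomal protein genes, 56 respiratory chain genes, 29 proteasome genes and 25 RNA polymerase II and Mediator genes. The share of 28.4% counts genes without any Hdac1 island too. Such genes numbered 3 among cytosolic ribosomal proteins, 1 each among splicing factors and mitochondrial ribosomal proteins, 121 among solute carriers and 64 among Zfp genes. Of the 12944 autosomal genes with an Hdac1 island at an end, 5864 were in the set.

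Ribosomal protein genes had weak Hdac2 islands within the set. Their 38 islands had a median Hdac1 value of 1.16e-62, close to the 3.1e-65 of all 5013, but a median Hdac2 value of 9.77e-06, against 4.2e-08. Rpl4, for example, was at 1.49e-155 for Hdac1 and 2.99e-06 for Hdac2, Rps12 at 1.24e-120 and 0.0051, and Rpl14 at 9.57e-62 and 2.13e-10. Clustered histone genes showed the opposite balance. Of 67 such genes 37 were in the set (55.2%), against 28.4% of all genes, and another 22 had an Hdac1 island of 5 kb or more, against 5.12%. The 37 lay on 23 islands, since neighbours share an island, and the medians were 8.66e-63 for Hdac1 and 1.06e-10 for Hdac2. The islands over H4c18 and H2ac24 (5.26e-97 and 2.89e-29), over H2ac15 and H2bc15 (8.66e-63 and 3.65e-21) and over H4c9, H2ac11 and H2bc11 (7.55e-79 and 1.47e-20) were the lowest for Hdac2. Histone genes are near-identical copies, and the sources used here do not say how reads with several positions were placed, so their values are uncertain.

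These counts, too, depend on the value that an island must reach. With only the upper 50% of each list by value, a shared island was left at 3 cytosolic ribosomal protein genes, 3 splicing factor genes, 4 nuclear pore genes and 6 aminoacyl-tRNA synthetase genes. Clustered histone genes were then at 28, and all genes at 2665 of 20661, from 5864 at the main setting. With a width limit of 4000 bp, 11 deacetylase complex, 4 acetyltransferase and 20 histone genes were left, with 5004 of the 20661 genes in all.

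Mitosis genes in the set had low Hdac1 values, whereas the median of DNA replication genes was near that of the whole set. Mitosis genes were in the set at 11 of 24 (45.8%, interval 27.9 to 64.9%), against 28.4% of all genes. The other 13 had Hdac1 alone, against 29.1% of all genes. All 24 thus had an Hdac1 island at an end. Of the 12944 autosomal genes with such an island, 5864 were in the set, and the mitosis share was close to this one. The median Hdac1 value of the mitosis genes was 3.94e-124, against 3.1e-65 for the whole set, and their median Hdac2 value 4.08e-07, against 4.2e-08. Aurka, a spindle kinase gene, was at 2.28e-240 for Hdac1 but 0.00306 for Hdac2. Ttk was at 4.16e-234 and 7.53e-12, and Plk1, the polo kinase gene, at 2.62e-167 and 1.15e-08. DNA replication genes were in the set at 9 of 36 (25%), near the share of all genes, 23 had Hdac1 alone and 2 had no Hdac1 island. Their median Hdac1 value was 8.86e-67 and their median Hdac2 value 1.67e-05. Mcm7, a subunit gene of the replicative helicase, was at 6.64e-198 and 2.34e-08, and Pcna, the sliding clamp gene, at 2.9e-92 and 1.96e-09. At the other extreme Cdc6, a helicase loading gene, was at 2.74e-11 and 0.000658, at an island that touched a last base window only. Rfc4, a clamp loader gene, was at 1.8e-52 and 0.000191. With the upper 50% of each list by value, 5 mitosis and 2 DNA replication genes were left, with 2665 of the 20661 genes in all.

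Genes of nephron progenitors mostly had wider islands. Of 25 autosomal progenitor genes 14 had an Hdac1 island of 5 kb or more, against 5.12% of all genes, and 9 were in the set (36%, interval 20.2 to 55.5%), an interval that holds the 28.4% of all genes. Wide islands also stood at 8 of 17 stromal genes, 7 of 26 genes of committed nephron cells and 4 of 18 ureteric bud genes. Dach1, a transcription cofactor gene, had 4800 bp of Hdac1 (9.42e-140) and 3600 bp of Hdac2 (3.86e-13). Fgfr1, a receptor for the growth factors that maintain progenitors, had 4000 bp (3.06e-136) and 1400 bp (1.91e-08), and Itga8, an integrin gene of the cap mesenchyme, 4400 bp (8e-59) and 1200 bp (1.52e-07). Bmp7, Fgf20, Lin28b and Meox1 were also in the set, and Gdnf entered it through the island at its last base. Of 26 genes of committed nephron cells 8 were in the set (30.8%), near the share of all genes, 8 had Hdac1 alone and 3 had no Hdac1 island. The 8 in the set include Wnt4, the signal for epithelial transition, with 1400 bp (2.03e-85) and 1800 bp (6.22e-10), and Lhx1, Notch1, Dll1 and Cxcr4. Of the 39 Hox genes only Hoxd1, Hoxd4 and Hoxa13 were in the set, and 32 had an Hdac1 island of 5 kb or more. Without the width limit 23 progenitor genes, 14 committed nephron genes, 10 stromal genes, 9 ureteric bud genes and 34 Hox genes had a shared island. Over all genes the count was then 6821 of 20661. With the upper 50% of each list by value, 4 progenitor and 5 committed nephron genes had a narrow shared island, as did 2665 of all 20661 genes.

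Markers of other cells that the culture could hold were in the set at 5 of 18 ureteric bud genes (Ret, Sox9, Aqp2, Etv5 and Emx2), 4 of 17 stromal genes (Foxd1, Meis2, Sfrp1 and Dcn), 2 of 15 endothelial and blood genes (Erg and Sox18) and 2 of 16 podocyte and tubule genes (Lrp2 and Podxl). All genes stood at 28.4%. The islands at Aqp2 and Meis2 touched last base windows only. Among these markers Erg, an endothelial transcription factor gene, had the lowest Hdac2 value, 3.51e-46, with 3.86e-107 for Hdac1. Of 18 genes of distant lineages Snap25, Sftpc and Olig2 were in the set. Whether other cells contributed chromatin was not tested.

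Large families of tissue-restricted genes were almost absent. The listed olfactory, vomeronasal and taste receptor genes were in the set at 4 of 1491 (0.268%, interval 0.104 to 0.688%), through islands at Olfr1033, Vmn1r4, Vmn2r29 and Olfr960. The island at Dvl1 also touched Tas1r3, a taste receptor gene that is not counted among these 4. Keratin genes were in it at 1 of 53, Krt222, and chemokine and interleukin genes at 5 of 74, against 28.4% of all genes. Those 5 included Cxcl12, a chemokine made by mesenchymal cells, with 3800 bp of Hdac1 (1.46e-145) and 4800 bp of Hdac2 (1.26e-19). Most genes of these families had no Hdac1 island of any kind at an end. None stood at 1486 of the receptor, 47 of the keratin and 58 of the chemokine and interleukin genes, whereas 62.6% of all genes had one.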

How the data were processed

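Chromatin immunoprecipitation and sequencing gave 1 library for Hdac1 and 1 for Hdac2. The submitters' processing notes name SICER, bedtools 2.17, FastQC, SAMtools 1.3.1 and BWA 0.7.5a, and the mm10 build. No source used here gives the SICER settings, the background library or the depth. Per the labels' protocols each library came from 500 pg of DNA and at least 12 cycles of amplification, so reads are not independent molecules. Precipitations with H3K4me3 and IgG antibodies, run as controls per the labels' protocols, were not analysed here. The deposited files hold island positions and 1 p-value or q-value per island; nothing states which.

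Islands were read with Python 3.11.15, numpy 2.4.6 and pandas 2.3.3 and drawn with matplotlib 3.10.9. Widths are the last base minus the first plus 1, and positions are printed 1-based. Each island was paired with the Hdac2 island sharing the most bases. Genes, strands and promoters came from RefSeq (GRCm38.p6, the assembly of mm10). Overlaps were tested on simulated data and equalled those of bedtools. The regions, 26 gene lists and 15 motifs were chosen with earlier results of these data known. Genes named are the 10 strongest islands by each antibody, the 5 weakest by Hdac1, the 5 with the most genes, those at the width limit, and members of the lists; an island is named by the gene end nearest its centre. Named in addition, after their values were seen, were the 3 islands with the smallest overlap. Sequences are of the strongest islands, 1 listed gene with the median CG count and the promoters with TATA letters and fewest CG. The design as planned had no tests, and alternatives were stricter values, other overlaps, windows, width limits and chromosomes.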

Additional observations from a re-analysis of the deposited data

How the results depend on the processing

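With the upper 50% of each list by value, the set fell to 2288 islands at 2665 genes, 25.5% of narrow Hdac1 islands at gene ends were shared, the median width was 2800 bp, Hdac2 covered 73.7%, and 97% of islands lay at a gene start; 22 of 26 gene lists changed by over 1.5 times, all downward. Requiring Hdac2 to cover 50% of the Hdac1 island gave 40% shared, a median Hdac2 width of 2400 bp and 79.2% covered. A reciprocal 50% overlap gave 37.8% shared, 78.6% covered and 96.8% at a gene start. A window of 2 kb put 95.3% at a gene start. A width limit of 4000 bp gave 42.8% shared, a median of 2400 bp and 77.8% covered, and 5 lists fell by over 1.5 times. Without a width limit 49% were shared, widths were 2800 bp for Hdac1 and 2400 bp for Hdac2, 72.7% was covered, and 7 lists rose by over 1.5 times. Adding chromosomes X and Y gave 44.7% shared. The set held 4141 to 5800 islands under these alternatives other than the stricter values. The cause of these shifts was not tested beyond the islands each setting adds or leaves out. No paired analysis was possible because each antibody has 1 library. The unknown read depth limits any statement that Hdac2 is absent at an Hdac1 island.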
